A study of Mus musculus with 6 samples.

Results

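The genes described here are the 10 that make up the core of transforming growth factor beta (TGF-β) supply and sensing in the mouse heart: the 3 ligands *Tgfb1*, *Tgfb2* and *Tgfb3*, the 4 latent TGF-β binding proteins *Ltbp1* to *Ltbp4*, and the 3 receptors *Tgfbr1*, *Tgfbr2* and *Tgfbr3*. They were taken by name as one family, and no measured value enters the rule. The array names 27307 genes in all and holds 22 probes for these 10. RNA from whole myocardium of male C57BL/6J mice was measured, with 1 Agilent 8x60K mouse array and 1 dye per animal, in 3 mice given AAV NEXN-WT and 3 given AAV NEXN-S437E. Nexilin (NEXN) is an actin-binding protein of the sarcomere's Z-disc, and S437E replaces a serine by a glutamate that mimics its phosphorylation. All 6 mice were *Clk4*-cKO: floxed *Clk4*, which encodes the kinase CLK4, was crossed to MerCreMer driven by the α-MHC promoter, so that tamoxifen deleted exons 3 to 10 in cardiomyocytes. The virus, of serotype AAV9, carried *Nexn* under the CMV promoter and was given intravenously at 5 weeks of age, tamoxifen was given between 6 and 8 weeks, and hearts were examined 3 weeks after its first dose. The comparison asks how transcripts of *Clk4*-deficient hearts differ when the added NEXN is the phosphorylation mimic and not the wild type. Hearts with intact *Clk4* and hearts without virus were not analysed here.

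TGF-β is secreted as a dimer still wrapped in its own propeptide, the latency-associated peptide, and in this form cannot bind a receptor. Most of it is also tied by disulfide bonds to a latent TGF-β binding protein, which anchors the complex on fibrillin microfibrils and fibronectin in the matrix until integrins, proteases or thrombospondin set the ligand free. The free ligand binds TGFBR2, which phosphorylates TGFBR1, and TGFBR1 phosphorylates SMAD2 and SMAD3; TGFBR3, betaglycan, presents ligand, TGF-β2 in particular. In the heart the pathway is best known for turning fibroblasts into matrix-secreting cells in fibrosis.

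Levels are given as the log2 of a probe's background-subtracted signal over the 75th percentile of the detected probes on the same array, so 0 is the signal of a fairly bright probe. They compare arrays for 1 probe, not 1 probe with another. Each fold change is NEXN-S437E over NEXN-WT from limma over 22998 probes. A probe was called changed at the study's thresholds, at least 2-fold with an unadjusted p under 0.05, and the Benjamini-Hochberg adjusted p is given beside it. With 3 animals against 3, an exact permutation test of a single probe could not go below p = 0.1 (two-sided). All of the NEXN-WT arrays lay with NEXN-S437E replicate 1 in one row of the slide and the other NEXN-S437E arrays in the next, so slide row and group overlap in part. The 75th percentile of detected signal ran from 693 to 1520 units, and 41.9% to 47.8% of the spots were well above background. The *Clk4* probe measured on all arrays differed by 0.05 (log2, with a standard error, SE, of 0.18) and the *Nexn* probes by -0.06 and 0.06, which says nothing of the deletion or the virus, since both groups carried both.

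NEXN-WT replicate 1 stood apart from the other arrays and was, like all arrays, kept. Over the tested probes its mean absolute distance on the log2 scale was 0.37 to NEXN-WT replicate 2 and 0.43 to replicate 3, which were 0.25 from each other. The NEXN-S437E arrays were 0.19 to 0.29 apart. Over the probes of the 10 genes the same array was 0.79 and 0.88 from its group, whose other members were 0.17 apart. It was the highest of the 6 arrays for 15 of the 16 tested probes of the 10 genes, against 32.1% of all tested probes. Each fold change of the 16 probes is therefore also given without it.

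Of the 22 probes, 16 were tested because each of the 3 arrays of one group or the other read them well above background, at least 1 for each of the 10 genes, and 14 of these were so on all 6 arrays. With NEXN-S437E, 6 probes of 5 genes, *Tgfb2*, *Tgfb3*, *Ltbp2*, *Ltbp3* and *Tgfbr1*, were called lower and 0 were called higher, against 2.03% of all tested probes lower and 0.53% higher. By sign alone, 15 of the 16 were lower and 1 was higher, the median being -0.81 (log2) beside 0.01 over all tested probes. In 12 of the 16 every NEXN-S437E array lay below every NEXN-WT array, and 12.4% of all tested probes did so. These counts include a *Tgfbr1* and an *Ltbp3* probe that no NEXN-S437E array read above background, the former among the 6 called and the latter among the 12. Over the 14 probes above background on all 6 arrays, 13 were lower by sign, and in limma on such probes alone 5 of the 14, 1 for each of the 5 genes, were called lower, against 1.34% of all such probes. None passed an adjusted p of 0.05, which 0.148% of all tested probes did; the smallest adjusted p was 0.105. An unadjusted p under 0.05 with a lower level was found in limma for 12 of the 16 and for 8.57% of all tested probes. With the fold threshold at 1.5, 9 were called lower and 0 higher, against 5.28% and 3.05% of all tested probes. Without NEXN-WT replicate 1, only the *Ltbp2* probe was called lower (1.25% of all tested probes were), because the other fold changes came to under 2. In that fit the spread within the NEXN-WT group was smaller, and 2 probes, those of *Ltbp2* and *Tgfb3*, passed the adjusted p. Tissue RNA cannot tell fewer cells of a type from less RNA per cell, so these are differences of the tissue as a whole.

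**Figure D1:**
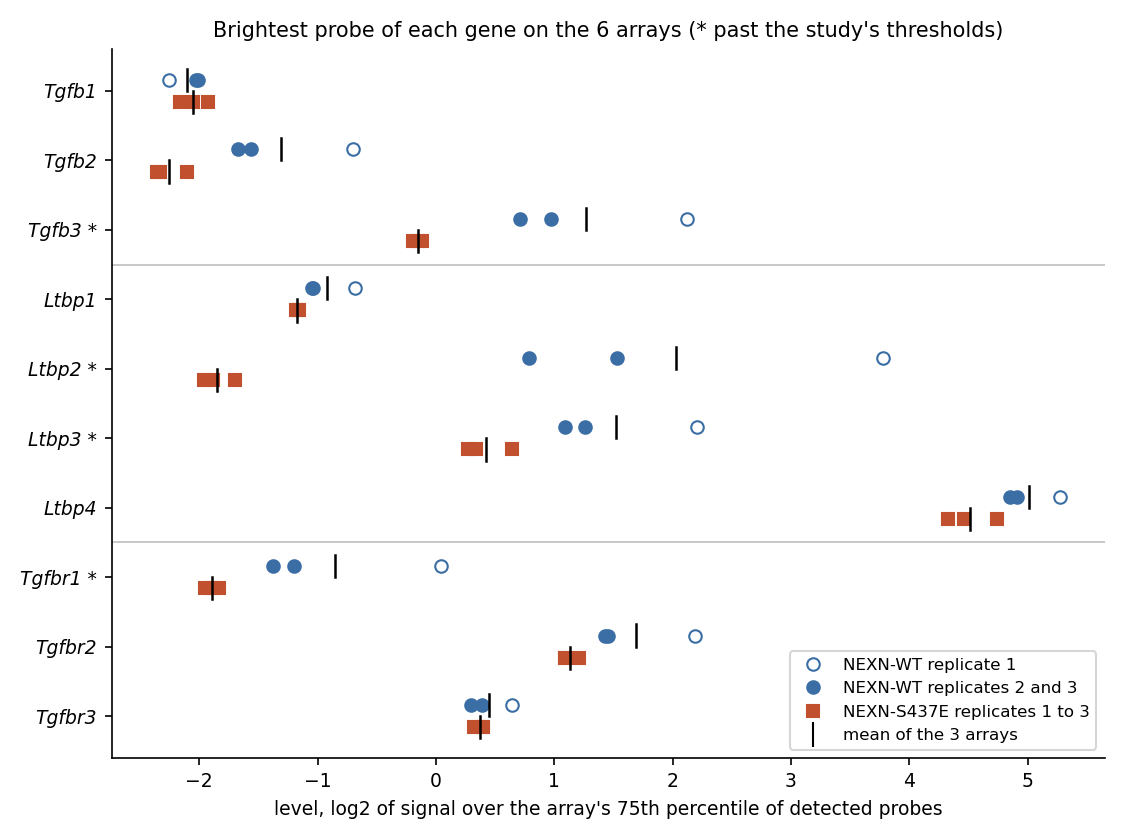
Level of the brightest probe of each of the 10 genes on each of the 6 arrays (x axis: log2 of signal over the array's 75th percentile of detected probes), with ligands, latent binding proteins and receptors in 3 blocks. Circles are NEXN-WT arrays, the open one replicate 1, squares are NEXN-S437E arrays and vertical bars are means of 3 arrays. Replicate 1 of NEXN-WT is the rightmost point for every gene but *Tgfb1*, and *Ltbp2* has the widest gap between the groups. Positions of different genes along the axis are not comparable.

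Among the ligands, *Tgfb3* and *Tgfb2* were lower with NEXN-S437E, while *Tgfb1*, the isoform usually linked to fibrosis, gave opposite signs on its 2 probes. The *Tgfb3* probe (A_51_P124748, chr12:87397804-87397863 on mm9, minus strand) read 2.12, 0.97 and 0.71 in NEXN-WT replicates 1 to 3 and -0.15, -0.12 and -0.19 in the NEXN-S437E replicates. The groups did not overlap, and the 3 NEXN-S437E arrays were nearly equal while NEXN-WT replicate 1 lay over 1 log2 unit above the rest. The log2 fold change was -1.42 (SE 0.34, 95% confidence interval -2.21 to -0.62, limma adjusted p = 0.155), a 2.67-fold lower level. Without NEXN-WT replicate 1 it was -0.99 and just short of 2-fold, with an adjusted p of 0.0478 (range over all alternatives 0.0438 to 0.471).

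*Tgfb2* was read by a probe for each of 2 places in its transcript, and only the dimmer one was called. The dimmer (A_51_P317640, chr1:188447534-188447593, minus strand) read -2.56, -3.60 and -3.78 with NEXN-WT and -4.47, -4.41 and -4.63 with NEXN-S437E. The change came to -1.20 in log2 (SE 0.31, limma adjusted p = 0.168), and -0.82 without NEXN-WT replicate 1. The call was lost there, with array weights (-0.97) and with normexp background correction (-0.51), and held in 15 of 18 alternatives. The brighter (A_65_P10913, chr1:188449333-188449392, minus strand) read -0.70, -1.56 and -1.67 against -2.10, -2.33 and -2.36, a log2 fold change of -0.95 (SE 0.26, adjusted p = 0.180), 1.93-fold lower and so not called, and -0.65 without NEXN-WT replicate 1. Neither probe's groups overlapped, and the 2 estimates lie well within each other's confidence intervals (-1.91 to -0.48 and -1.56 to -0.34).

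*Tgfb1* is the gene where the probe mattered most. Its brighter probe (A_51_P390715, chr7:26489877-26489936, plus strand) read -2.26, -2.01 and -2.03 with NEXN-WT and -1.93, -2.16 and -2.05 with NEXN-S437E. The groups overlapped, NEXN-WT replicate 1 was the lowest of the 6 rather than the highest, and the log2 fold change was 0.05 (SE 0.14, 95% confidence interval -0.28 to 0.38, adjusted p = 0.865). The sign turned to -0.03 without NEXN-WT replicate 1. The dimmer probe (A_66_P135688, chr7:26477408-26477467, plus strand) read -4.15, -4.53 and -4.65 against -5.43, -4.96 and -4.96. Here the groups did not overlap, with a log2 fold change of -0.67 (SE 0.20, adjusted p = 0.200), under 2-fold and not called, or -0.53 without NEXN-WT replicate 1. Its processed signal was low, 16.1 to 85.8 units against 181 to 317 for the brighter probe, and with normexp background correction the difference came to -0.05.

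The probe sequences show what these readings rest on, and are printed as the array's annotation gives them, 5′ to 3′. The brighter *Tgfb1* probe starts at base 1955 of transcript NM_011577, in the stretch coding for the end of the mature ligand, and the brighter *Tgfb2* probe covers the matching stretch of *Tgfb2*. In the best ungapped alignment of these probes, 28 of 41 overlapping bases (68.3%) were identical, and those bases are in capitals. The dimmer *Tgfb1* probe starts upstream, at base 1234 of the same transcript, in the stretch coding for the latency-associated peptide, and has 36.7% G and C against 55.0% in the other.
Tgfb1 A_51_P390715: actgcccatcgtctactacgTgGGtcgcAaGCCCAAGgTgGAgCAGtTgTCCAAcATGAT
Tgfb2 A_65_P10913: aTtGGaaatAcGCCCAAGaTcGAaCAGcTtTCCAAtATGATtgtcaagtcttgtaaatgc
Tgfb1 A_66_P135688: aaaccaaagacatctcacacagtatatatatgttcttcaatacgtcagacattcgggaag

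Among the latent binding proteins, *Ltbp2* had the largest difference of all 10 genes and *Ltbp3* a smaller one, while *Ltbp1* and *Ltbp4* were not called. LTBP2 differs from its relatives in that it binds fibrillin but does not bind latent TGF-β, so its name does not describe a carrier of the ligand. The *Ltbp2* probe (A_55_P1970105, chr12:86124167-86124226, minus strand) read 3.78, 1.53 and 0.79 in NEXN-WT replicates 1 to 3 and -1.70, -1.96 and -1.88 in the NEXN-S437E replicates. The NEXN-WT arrays spread over about 3 log2 units and the NEXN-S437E arrays over less than 0.3, yet the lowest NEXN-WT array was well above the highest NEXN-S437E array. In processed signal this was 20900, 3030 and 1630 units against 213, 255 and 239.

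The log2 fold change of *Ltbp2* was -3.88 (SE 0.68, 95% confidence interval -5.46 to -2.30, adjusted p = 0.105), a 14.7-fold lower level. Without NEXN-WT replicate 1 it was -3.00 (SE 0.23, adjusted p = 0.0112, range over all alternatives 0.0112 to 0.380), an 8.02-fold lower level. It was called in 18 of 18 alternative settings, with log2 fold changes from -4.50 to -3.00. A further *Ltbp2* probe (A_55_P2732081) was well above background on 1 array, NEXN-WT replicate 1, and was not tested.

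The brighter *Ltbp3* probe (A_51_P233101, chr19:5758289-5758346, plus strand) read 2.21, 1.26 and 1.09 with NEXN-WT and 0.64, 0.27 and 0.34 with NEXN-S437E. LTBP3 is a carrier of latent TGF-β, and its level fell without overlap of the groups, by 1.1 in log2 units (SE 0.29, adjusted p = 0.174). The fold change was -0.76 without NEXN-WT replicate 1 and -0.88 with slide row as a block, and neither was called. The dimmer *Ltbp3* probe (A_52_P652936, chr19:5751763-5751822) was above background on no NEXN-S437E array, so it gives only a bound, at least 1.38-fold lower (limma adjusted p = 0.178), and its fitted difference was -0.67 without NEXN-WT replicate 1 and 0.02 with normexp background correction.

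*Ltbp4*, another carrier, was read at 3 places. The brightest (A_51_P403536, chr7:28090175-28090234, minus strand) read 5.27, 4.91 and 4.85 against 4.74, 4.33 and 4.46, a log2 fold change of -0.50 (SE 0.18). The others gave -0.57 (SE 0.16) and -0.31 (SE 0.18), the last with overlapping groups and a sign that turned to 0.03 with normexp. All 3 were under 2-fold, with adjusted p from 0.187 to 0.427, and came to -0.37, -0.45 and -0.21 in the same order when NEXN-WT replicate 1 was left out. The *Ltbp1* probe that was tested (A_55_P1973033, chr17:75790530-75790589, plus strand) read -0.68, -1.04 and -1.05 against -1.16, -1.17 and -1.18. Its groups did not overlap, but the log2 fold change was only -0.25 (SE 0.15, adjusted p = 0.425), and -0.12 without that array. The other *Ltbp1* probes, 3 in all, were not above background on all arrays of either group.

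The start region of *Ltbp2* is shown because this gene moved most. RefSeq's promoter table (GRCm38.p6) held an entry for 8 of the 10 genes, all but *Tgfb3* and *Tgfbr3*, in 12 windows because *Ltbp4* (3), *Ltbp1* and *Tgfbr1* (2 each) have several annotated starts. The bases below lie upstream of every annotated *Ltbp2* transcript, at chr12:84876559-84876741 on the minus strand, and the capitals mark a match to the GC box GGGCGG, here on the opposite strand as CCGCCC.
Ltbp2 upstream region: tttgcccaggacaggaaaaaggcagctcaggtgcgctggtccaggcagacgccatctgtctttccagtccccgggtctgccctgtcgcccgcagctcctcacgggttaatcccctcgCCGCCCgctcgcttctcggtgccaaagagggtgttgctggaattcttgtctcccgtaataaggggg
Over the table's full windows, 250 bases before to 50 after the start, GGGCGG stood on either strand in 6 of the 12, which belong to *Ltbp2*, *Ltbp4*, *Tgfb1* and *Tgfbr1*, and in 35.7% of all 32851 windows. CCAAT stood in 6 of the 12 and 37.4% of all, TATAAA in 1 (*Tgfb2*) and 13.6%, and the AP-1 motif TGANTCA in 1 (*Ltbp3*) and 7.81%. Windows of 1 gene can overlap, as those of *Ltbp4* do, so they are not separate observations. The Smad palindrome GTCTAGAC (0.213% of all windows), the CAGA box AGCCAGACA (0.387%) and the muscle CAT motif CATTCC (14.7%) stood in none of the 12. These are matches of letters, not sites of binding, and GGGCGG stood both in genes that were called and in genes that were not.

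Among the receptors, *Tgfbr1*, the signalling kinase, was called lower on both of its tested probes, the dimmer of which gives only a bound, *Tgfbr2* had a difference of the same sign under 2-fold, and that of *Tgfbr3* was near 0. The brighter *Tgfbr1* probe (A_52_P4538, chr4:47427421-47427480, plus strand) read 0.04, -1.20 and -1.38 with NEXN-WT and -1.95, -1.89 and -1.83 with NEXN-S437E. The groups did not overlap, but NEXN-WT replicates 2 and 3 lay much nearer to the NEXN-S437E arrays than to replicate 1. The log2 fold change was -1.04 (SE 0.35, 95% confidence interval -1.86 to -0.22, adjusted p = 0.230), and -0.60 without NEXN-WT replicate 1. It was called in 11 of 18 alternative settings, the fewest of the brightest probes that were called.

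The dimmer *Tgfbr1* probe (A_51_P280137) is shown because its 60 bases are split in the genome, from chr4:47419898-47423556, so that it reads spliced transcript across an intron.
Tgfbr1 A_51_P280137: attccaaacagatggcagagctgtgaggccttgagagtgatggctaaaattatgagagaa
It read -4.81, -5.75 and -5.99 with NEXN-WT and -5.86, -7.91 and -6.79 with NEXN-S437E, so the groups overlapped. No NEXN-S437E array read it above background, and the bound was at least 1.31-fold lower (limma adjusted p = 0.278), with a fitted difference of -0.98 without NEXN-WT replicate 1, -0.01 under normexp and -0.34 with slide row as a block. The other *Tgfbr1* probes were not above background on any array.

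The *Tgfbr2* probe (A_55_P2909739, chromosome 9, minus strand) read 2.19, 1.43 and 1.45 with NEXN-WT and 1.21, 1.09 and 1.09 with NEXN-S437E. The groups did not overlap, and the log2 fold change was -0.56 (SE 0.22, 95% confidence interval -1.08 to -0.05, adjusted p = 0.275), or -0.31 without NEXN-WT replicate 1. The *Tgfbr3* probe (A_65_P16059, chr5:107535818-107535877, minus strand) read 0.64, 0.39 and 0.30 against 0.40, 0.32 and 0.40. These overlapped, with a log2 fold change of -0.07 (SE 0.14, 95% confidence interval -0.40 to 0.26, adjusted p = 0.810). The interval leaves out a 2-fold change of *Tgfbr3* in either direction, as does that of the brighter *Tgfb1* probe, and the sign of *Tgfbr3* turned, to 0.03, when NEXN-WT replicate 1 was left out, and to 0.01 under the percentile over all probes.

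**Figure D2:**
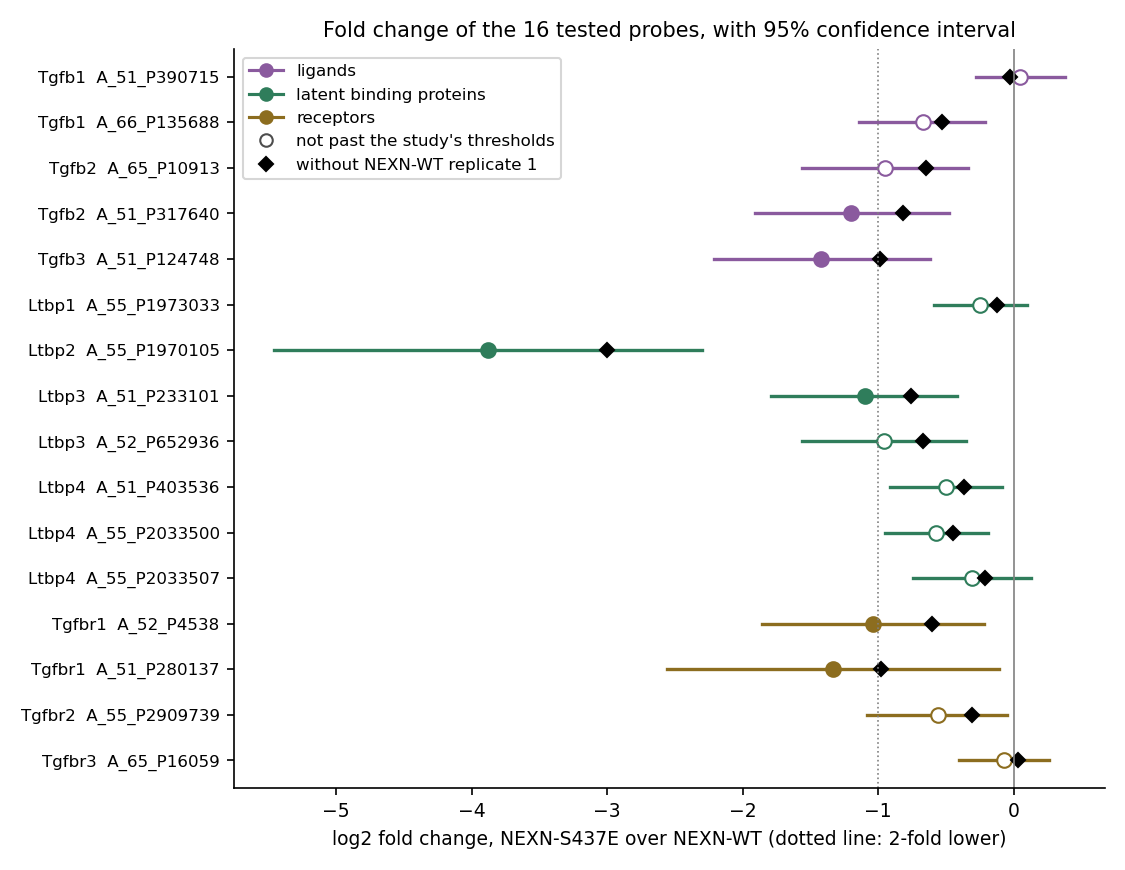
Log2 fold change (x axis, NEXN-S437E over NEXN-WT) of the 16 tested probes, with the 95% confidence interval from limma on all 6 arrays. Filled circles passed the study's thresholds, open ones did not, colours give the role, and black diamonds are the values without NEXN-WT replicate 1. The diamond lies closer to 0 than the circle for all 16 probes, on the other side of 0 for *Tgfb1* (brighter probe) and *Tgfbr3*, and only that of *Ltbp2* stays beyond the dotted 2-fold line.

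The genes whose arrays followed the same course were matrix genes. For each of the 3 member genes of smallest p by their brightest probe, the 5 nearest of 12922 genes were taken by the mean absolute difference of profiles over the 6 arrays, each profile centred on its own mean. All 6 arrays share the group difference and the high NEXN-WT replicate 1, so a small distance is a description of these arrays. Among the nearest to *Ltbp2* were *Comp* (0.20 log2 units), *Dkk3* (0.23), *Cilp* (0.27) and *Fbn2* (0.31), of which *Comp* and *Cilp* encode cartilage matrix proteins that activated fibroblasts also make. Nearest to *Tgfb3* were *Col14a1*, *Fgl2*, *Thbs3*, *Loxl1* and *Mfap2*, all within 0.08. Nearest to *Ltbp3* were *Csrp2*, *Lrrc16a*, *Col6a1*, 3830612M24 and *Tgfb2*, again within 0.08. *Tgfb2* was thus the only member among the nearest genes of another.

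The rest of the pathway was read from 6 lists by the brightest tested probe of each gene. Of the 13747 genes tested, 2.44% were called lower and 0.604% higher, and the median difference was -0.01 (log2). Of the 12931 of these read above background on all 6 arrays, 1.68% were called lower and 0.41% higher. Of 15 genes that store or activate latent TGF-β, 14 were tested, 5 were called lower and 0 higher, with a median of -0.85. *Mmp14* and *Itgb8* among them were above background on no NEXN-S437E array and so passed the filter through the NEXN-WT group alone. Over the other 12 genes, 4 were called lower, with a median of -0.73. The microfibril genes fell by 3.26 (*Fbn2*) and 1.40 (*Fbn1*) on the log2 scale, the proteases *Mmp2* by 1.84 and *Mmp14* by at least 2.37-fold, and *Thbs1*, encoding a thrombospondin that can activate the ligand, by 1.55. *Thbs1* in NEXN-WT replicate 1 read 0.95, far from -1.39 and -1.32 in the other NEXN-WT arrays, and without that array its difference was -0.78. *Itgb1*, an integrin chain (-0.17), and *Furin*, the convertase that cleaves the TGF-β precursor (0.18), were bright and not called. Without NEXN-WT replicate 1, 3 genes of this list were called lower, *Fbn2* (-2.49), *Mmp2* (-1.27) and the dim *Mmp14*, while *Fbn1* (-0.96) was not.

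Receptors outside the core were not called at all, 0 of 9 tested, with a median of -0.22. *Eng*, the endothelial co-receptor endoglin, had a log2 fold change of -0.04 and *Acvr1* one of -0.46. On the list of other ligands of the superfamily, 2 of 10 tested genes were called lower, with a median of -0.29. These were *Gdf15*, a stress-induced cytokine (-2.49), and *Bmp1* (-1.0), which despite its name is a procollagen protease. Of the ligands proper, only *Gdf15* was thus called. *Bmp4* (-0.37) and *Bmp6* (0.08) were not called. Without NEXN-WT replicate 1 only *Gdf15* was, at -1.69.

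Of the extracellular antagonists 3 of 6 were called lower, with a median of -0.85. They were *Fmod* (-3.38), *Fstl1* (-1.35) and *Bgn* (-1.02), which encode 2 small matrix proteoglycans and a secreted follistatin relative. *Dcn*, encoding the proteoglycan decorin (-0.16), and *Fstl3* (-0.68) were not called, and without NEXN-WT replicate 1 only *Fmod* was, at -2.30. *Fmod* was above background on 2 of the 3 NEXN-S437E arrays, and over the 5 genes above it on all arrays 2 were called lower, with a median of -0.68. Of the Smad proteins and their regulators 0 of 16 were called, with a median of -0.28. *Smad4*, the shared partner of all receptor-activated Smads, had a log2 fold change of -0.23 and the repressor *Ski* one of -0.33.

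Genes that TGF-β induces in fibroblasts showed the largest share of calls among the lists. Of 17 tested, 11 were called lower and 0 higher, with a median of -1.57, and 10 were called without NEXN-WT replicate 1. *Cilp* read 2.10, 0.26 and 0.26 with NEXN-WT and -2.89, -2.94 and -3.21 with NEXN-S437E. The difference of -3.88 in log2 (SE 0.47) was the only one in the 6 lists past the adjusted p (0.0438 in limma). *Comp* (-4.19), the collagen genes *Col1a1* (-1.90), *Col3a1* (-1.42) and *Col1a2* (-1.57), and *Timp1* (-2.54), an inhibitor of matrix proteases, were called too. Without NEXN-WT replicate 1 the differences were -3.27 for *Cilp*, -3.26 for *Comp* and -1.95 for *Timp1*, and -1.48, -1.13 and -1.15 for the collagen genes in the order given. *Acta2*, smooth muscle actin, differed by -0.04. The early Smad target genes *Ctgf* (-1.01, unadjusted p above the threshold) and *Smad7* (-0.05), named here after their values were seen, were not called, and *Smad7* turned to 0.28 without NEXN-WT replicate 1.

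**Figure D3:**
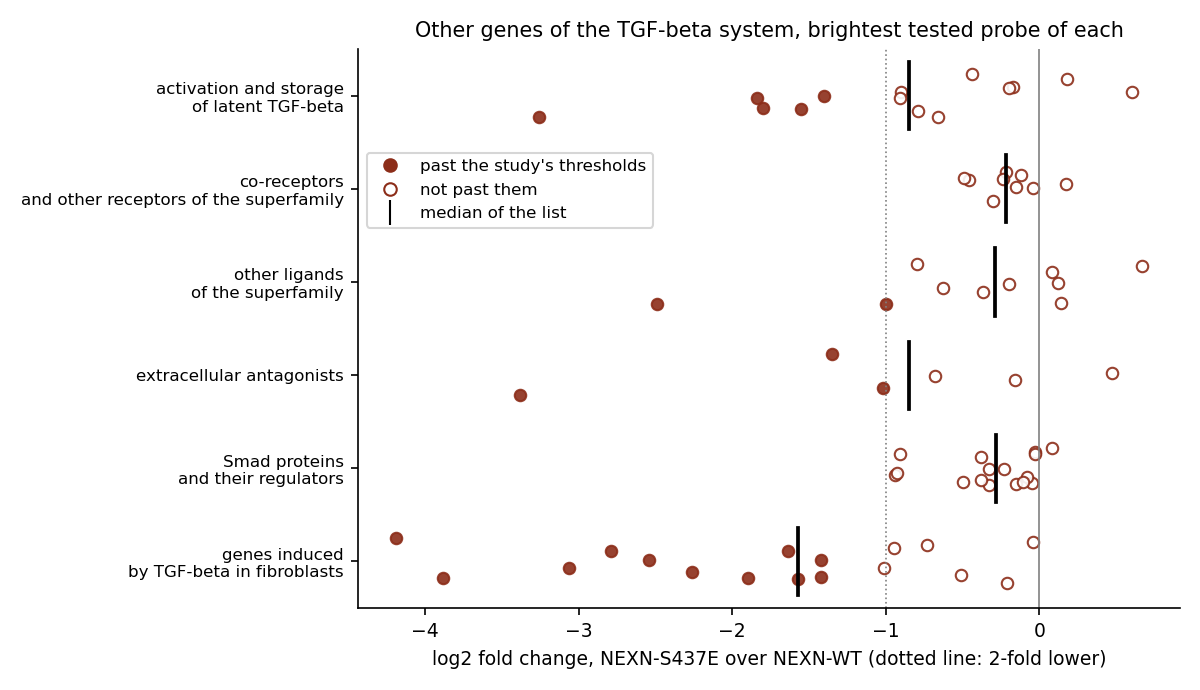
Log2 fold change (x axis, NEXN-S437E over NEXN-WT) of the tested genes of 6 lists of the TGF-β system, each point 1 gene by its brightest tested probe. Filled points passed the study's thresholds, open points did not, vertical placement within a list is for legibility only, and bars are list medians. The induced fibroblast genes spread furthest to the left with a median of -1.57, while the receptors and Smads stay to the right of the 2-fold line.

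Markers of cell types moved with these genes in part, which is given here as measured. The summed level of 8 activated fibroblast markers, in multiples of the array's 75th percentile, was 46.2, 9.21 and 8.38 in NEXN-WT replicates 1 to 3 and 2.07 to 2.36 with NEXN-S437E, and 7 of the 8 were called lower (7 of 8 also without NEXN-WT replicate 1). *Cthrc1*, 1 of the 7, was above background on 1 NEXN-S437E array, and of the other 7 markers 6 were called. This is the order of the NEXN-WT arrays seen for *Ltbp2* and *Tgfb3*. *Postn*, *Cilp* and *Comp* are in both this list and that of induced genes. Of the 8 general fibroblast markers 7 were lower by sign, with a list median of -0.84, and 2 were called, *Pi16* (-1.18, or -0.98 and not called without NEXN-WT replicate 1) and *Col15a1* (-1.55, or -1.13). Their mean level was 0.49 to 1.17 with NEXN-WT, highest in replicate 1, against -0.01 to 0.05 (log2). *Pdgfra* (-0.94), *Dpt* (-0.87) and *Lum* (-0.81) were not called. The sum of the list, 80.4 to 102 against 76.2 to 78.4, is mostly that of the bright *Gsn* probe, which differed by 0.16. Cardiomyocyte markers, which check the tissue, were bright on all arrays and summed to 302 to 363 against 416 to 433, higher with NEXN-S437E without overlap, though 0 of 8 were called. NEXN-WT replicate 1 had the highest fibroblast and lowest cardiomyocyte sums.

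Of the other lists, those of T cells and atrial cardiomyocytes were lower with NEXN-S437E without overlap. Endothelial markers summed to 26.7 to 31.9 against 27.4 to 30.9, those of smooth muscle cells and pericytes to 14.6 to 17.2 against 16 to 17.3, and those of macrophages to 13.2 to 17.8 against 14.0 to 14.5, with 0 called in each. T cell markers were dim, 0.533 to 0.723 against 0.248 to 0.278. Of 6 tested, 4 were called lower, against 2.44% of all tested genes. Of the 4, *Cd3g*, *Lck* and *Cd3d* also passed the adjusted p in limma (0.00116, 0.0124 and 0.0269). *Cd3e* (-0.62) and *Cd4* (0.14, with overlapping groups) were not called. *Cd3g* was above background on no NEXN-S437E array, so it was at least 2.31-fold lower, and 3 of the other 5 were called. Platelets store TGF-β1, and of their 6 markers 2 were tested and 0 called, with *Itga2b*, *Gp1ba* and *Treml1* above background on no array; the list summed to 3.64 to 4.90 against 5.20 to 5.47. Mesothelial markers summed to 0.355 to 0.386 against 0.354 to 0.610, with 2 of 5 tested and 0 called. Of 5 atrial markers 2 were tested. *Nppa*, which ventricular cardiomyocytes also make in hypertrophy, was called lower (-1.47, limma adjusted p = 0.0306) and makes up nearly all of the list's sum, 63.9 to 79.3 against 22.5 to 30.5. *Myl4* (-0.70) was not called. The part of any of these in the values of the 10 genes was not tested.

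**Figure D4:**
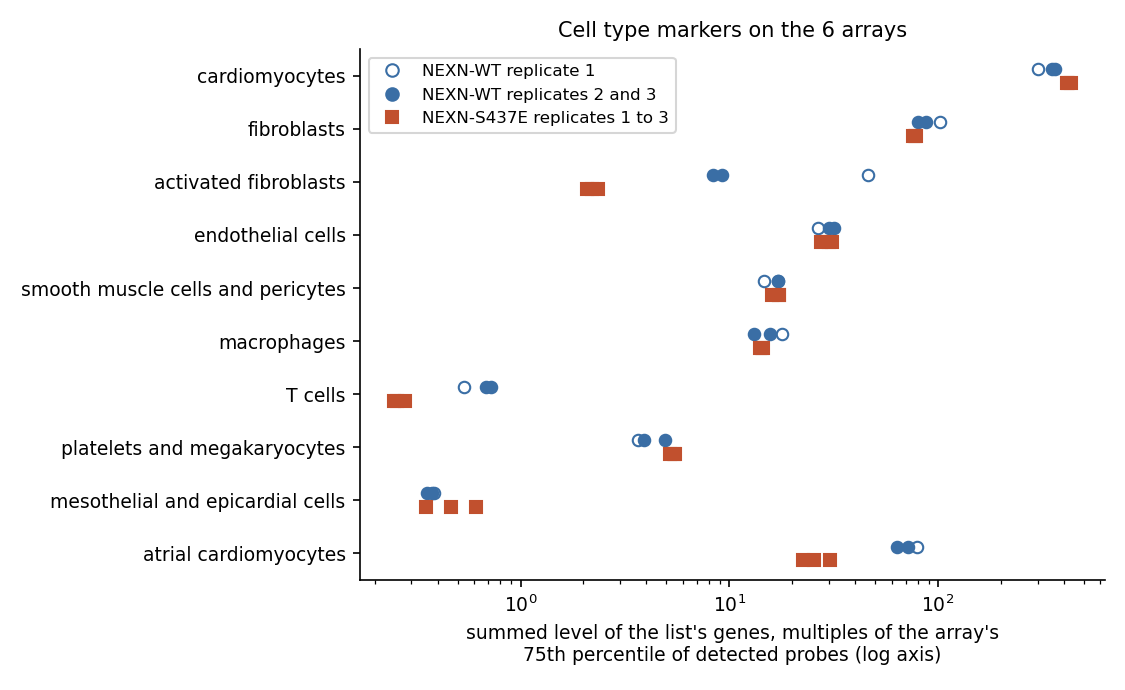
Summed level of the genes of 10 cell type marker lists on each of the 6 arrays (x axis: multiples of the array's 75th percentile of detected probes, log scale). Circles are NEXN-WT arrays, the open one replicate 1, and squares are NEXN-S437E arrays. Activated fibroblast markers run from 2.07 to 2.36 with NEXN-S437E to 46.2 in NEXN-WT replicate 1, while endothelial, smooth muscle and macrophage lists overlap between the groups.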

How the data were processed

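RNA from 6 hearts was hybridised to 1-colour Agilent arrays on 1 slide, read in 1 scan. The authors deposited scanner intensities from Agilent Feature Extraction 10.7.1.1, background-subtracted and detrended within each array, and a table of their own normalized log2 values, whose 6 columns have identical distributions. The software of that normalization is not given in the sources used here. Probe coordinates are on mm9, with no genome of that build used.

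From the processed intensities, control and outlier spots were left out, spots of a probe were averaged, and each array's 75th percentile over probes well above background on all 6 arrays was subtracted on the log2 scale, since at most 47.8% of the spots were detected. A probe was tested when every array of a group, of one or both, read it well above background, which left 22998 of 56605. Groups followed the sample labels, 3 animals each. The comparison used lmFit and eBayes of limma 3.58.1 with no block, in R 4.3.3. The script was checked on simulated data. Sequences and figures were handled in Python 3.11.15 with pandas, numpy and matplotlib. Where a probe was below background on all arrays of a group, the fold is a bound: the brighter group's mean against the dimmer group's mean of, per array, the higher of the probe's own signal and the lowest signal well above background.

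All 10 genes are named with every tested probe. From each pathway list the genes past the thresholds were named, at most 5 by p, with at most 2 more by mean signal, and for 3 members the 5 genes nearest in profile. The genes, lists and tests were chosen with earlier results of these data known. Alternatives were the percentile over all probes, quantile normalization, normexp (offset 50), the study's normalized values, other filters, outlier spots kept, the methods' t-test, a block for replicate number or for slide row, array weights, eBayes with an intensity trend, leaving out single arrays, and a 1.5-fold threshold. No spot was saturated. The number of arrays, not counting error, limits the precision. A gene that the naming rule picks among the nearest profiles is not reported here.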

Additional observations from a re-analysis of the deposited data

How the results depend on the processing

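The *Ltbp2* probe was called in every alternative run, and the count of called pathway genes (21) stayed between 15 and 28. Member probes called numbered 6, against 3 with normexp, 3 with slide row as a block, 3 with array weights, 4 by the methods' t-test, 5 with a filter on all 6 arrays and 1 to 8 with 1 array left out, the 1 without NEXN-WT replicate 1. Member probes past the adjusted p numbered 0 in limma, where 12 had an unadjusted p under 0.05, against 1 with normexp, 2 with array weights, 0 by the methods' t-test and 0 to 2 with 1 array left out. Over all tested probes, 590 were called, against 176 with normexp, 1948 without a filter, 354 with a filter on all 6 arrays and 377 to 920 with 1 array left out (377 without replicate 1 and 920 without replicate 3 of NEXN-WT), and 20.7% of the calls were higher, but 62.0% without a filter. Past the adjusted p were 34, against 6 without a filter, 18 with the filter on all 6 arrays, 0 by the t-test, 0 with slide row as a block, 485 with array weights and 6 to 127 with 1 array left out. Normexp shifted the median of all probes from 0.01 to 0.12 (log2) and the percentile over all probes shifted it to 0.09. The called *Tgfb2* probe lost its call with normexp (-0.51), array weights (-0.97) and without NEXN-WT replicate 1 (-0.82). *Tgfb3* ranged from -1.70 to -0.99 with 1 array left out and lost its call only without NEXN-WT replicate 1. *Ltbp3* lost its call at -0.88 (slide row), -0.94 (array weights) and -0.96 (its other probe), and ran from -1.31 to -0.76 with 1 array left out. *Tgfbr1* lost its call at -0.96 (percentile over all probes), -0.89 (normexp), -1.04 (t-test), -1.10 (slide row) and -0.72 (array weights), and ran from -1.31 to -0.60, losing it without NEXN-WT replicate 1 (-0.60) or NEXN-S437E replicate 1 (-1.01). *Tgfb1* turned to -0.04 with array weights and -0.67 on its other probe, and ran from -0.03 to 0.11 with 1 array left out, 0.00 without NEXN-S437E replicate 1. *Tgfbr3* turned to 0.01 with the percentile over all probes and ran from -0.14 to 0.03. The cause was not tested, and no run changed normexp's offset alone. With the replicate number as a block, 6 member probes were called and 12 of all probes passed the adjusted p. Deviations of same-numbered arrays correlated at -0.15, -0.03 and -0.18, and no array correlated best with its own number. Signal over background limits the *Tgfbr1* and *Ltbp3* probes that were dim with NEXN-S437E.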
